A study of Homo sapiens with 6 samples.

Results

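The genes described here encode enzymes that add or remove methyl and acetyl groups on histones, with the core subunits of Polycomb repressive complex 2 (PRC2) and with SAMD1, a CpG island-binding protein that recruits the demethylase KDM1A. They are 57 genes chosen by function, with earlier results of these data known. Each was matched by symbol to 1 gene of GENCODE 29, out of 58780 human genes in the tables. All 57 passed the filter on low counts. Expression was measured by RNA-seq in HCT116, an established human colorectal carcinoma line, in 3 libraries of cells kept for 16 h in auxin and in 3 libraries of cells given DMSO only. Auxin is a plant hormone that triggers the destruction of proteins carrying a degron tag. The labels give no auxin dose, no name for a tagged protein and no clone, and they list both groups under the same parental line, so the comparison is of auxin-treated with solvent-treated HCT116 cells as labelled. The labels number 3 biological replicates in each group.

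Histone acetyltransferases open chromatin by neutralising lysine charge, and deacetylases and sirtuins reverse that mark. Methyltransferases write marks with position-specific roles: methylation of H3K4 is found at promoters and enhancers, that of H3K36 and H3K79 along transcribed genes, and that of H3K9 and H3K27 in repressed chromatin. The LSD and Jumonji demethylases erase them. Most of these enzymes work inside large complexes, in which the catalytic subunit depends on partner proteins for targeting and activity.

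The libraries held 234037969 to 625895062 expected counts, and replicate 1 was the deepest library of its group in both groups. Epithelial markers were abundant, with mean levels in DMSO of 243 for EPCAM and 757 for KRT8 in TPM, an abundance corrected for transcript length, although CLDN7 fell from 80.3 to 6.16 TPM and CLDN3 had 2.28 TPM in DMSO. The blood cell markers PTPRC and CD3E were listed at 0 TPM in every library, and COL1A1, at 1.81 TPM in DMSO and 0.81 TPM after auxin, was the most abundant of 5 fibroblast and 4 endothelial markers. The GC content of protein-coding genes, weighted by their counts, was 47.0% to 47.5% in the DMSO libraries and 46.4% to 46.8% in the auxin libraries, so that it moved with the groups.

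The sequences below are the ends of 6 introns that coding transcripts of these genes splice out and that a transcript annotated as "retained intron" keeps. They are shown because the share of such transcripts moved with auxin in these genes. KAT2A-205 and SUV39H1-203 held nearly all of that share in their genes. The others held a minor part: after auxin KAT8-207, EHMT2-206, SIRT7-211 and HDAC10-215 had means of 11.2%, 10.4%, 17.4% and 18.8% of their gene's TPM. All retained-intron transcripts of these genes together had 72.8%, 31.2%, 61.85% and 72.5%. For each intron the donor and the acceptor site are given in transcript direction, read from GENCODE 29 on GRCh38, with exon bases in capitals and intron bases in lower case.
KAT2A-205 donor: TCTTTGACCCgtgcgtcccccagagagccc
KAT2A-205 acceptor: catgcccccctctctcttagGAAGCACAAG
KAT8-207 donor: AGGACCTCAGgtgagggggcctcccgggcc
KAT8-207 acceptor: gctctcatccctttttgcagCCAGATGACC
EHMT2-206 donor: ACTGCGTGCTgtgagcccctgccccgccct
EHMT2-206 acceptor: gcatcctgtcccctcttcagGTTATTCCTG
SUV39H1-203 donor: CAACCACAGTgtgggtacccccggcaggcg
SUV39H1-203 acceptor: aactgttctttctcgcccagTGTGACCCCA
SIRT7-211 donor: CAGCCTGAAGgtacgtgccgatgacacaat
SIRT7-211 acceptor: ctgtctgtctgcttccacagGTTCTAAAGA
HDAC10-215 donor: ATGACCCCAGgtgagcaggggtgcggaaac
HDAC10-215 acceptor: ccctggctggctgttggcagCGTCCTTTAC
These introns lie at chr17:42117162-42117387 on the minus strand for KAT2A, chr16:31130607-31130745 on the plus strand for KAT8, chr6:31884560-31884644 on the minus strand for EHMT2, chrX:48706412-48706497 on the plus strand for SUV39H1, chr17:81914168-81914293 on the minus strand for SIRT7 and chr22:50249455-50249634 on the minus strand for HDAC10. They are 226, 139, 85, 86, 126 and 180 bases long in that order, and all 6 begin with GT and end with AG.

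After auxin, 29 of the 57 genes were lower, 9 were higher and 19 did not pass a Benjamini-Hochberg adjusted p of 0.05 in edgeR's quasi-likelihood test, which gives every gene-level adjusted p below unless another tool is named. This is to be read against a broad response: of 19725 genes tested, 52.3% were called in either direction, 25.4% as higher and 26.9% as lower. Over protein-coding genes alone the shares were 27.8% and 33.4%. The enzyme genes were thus called lower in 50.9% and higher in 15.8% of cases. The log2 fold change (auxin over DMSO) had a median of -0.33 in the 57 genes, 0.02 over all genes tested and -0.01 over protein-coding genes. Falls of at least 2-fold were called in 14 enzyme genes, or 24.6%, against 13.3% of all genes and 16.0% of protein-coding genes, and rises of at least 2-fold in 0, against 6.55% of all genes. With offsets corrected for GC content SETD1B was called higher at 1.06. Fewer transcripts per cell and fewer cells of a kind cannot be told apart in such bulk libraries. With the replicate number as a block, 14 enzyme genes were called higher and 33 lower: HDAC2, SIRT7, SETD1B, EP300 and CREBBP were added to the genes called higher, and KDM3A, KDM6B, KMT2B and EZH1 to those called lower.

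The 14 genes that fell at least 2-fold were SAMD1, EHMT2, HDAC3, KAT8, KDM5C, SIRT2, SIRT6, HDAC7, HDAC10, KAT2A, HDAC5, HDAC6, HDAC11 and KAT5. All 14 kept a negative log2 fold change under each of 17 alternative settings of the fit, and 10 of them were called lower in all 17. The other 4, HDAC6, HDAC10, KAT2A and KAT5, lost the call only where TPM replaced counts. The size of several falls depended on GC correction: with GC-corrected offsets HDAC11, HDAC5, HDAC10 and KAT5 were lower by less than 2-fold, at -0.42, -0.81, -0.80 and -0.64, and HDAC7 and SIRT6 stood at -1.26 and -1.27, and KAT2A just past 2-fold. Of the 9 genes called higher, KDM5B and EHMT1 were called higher in all 17. Where the libraries of the groups are said below not to overlap in CPM, this describes genes picked by their call. The share of all genes tested with such separation is not given here.

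**Figure D1:**
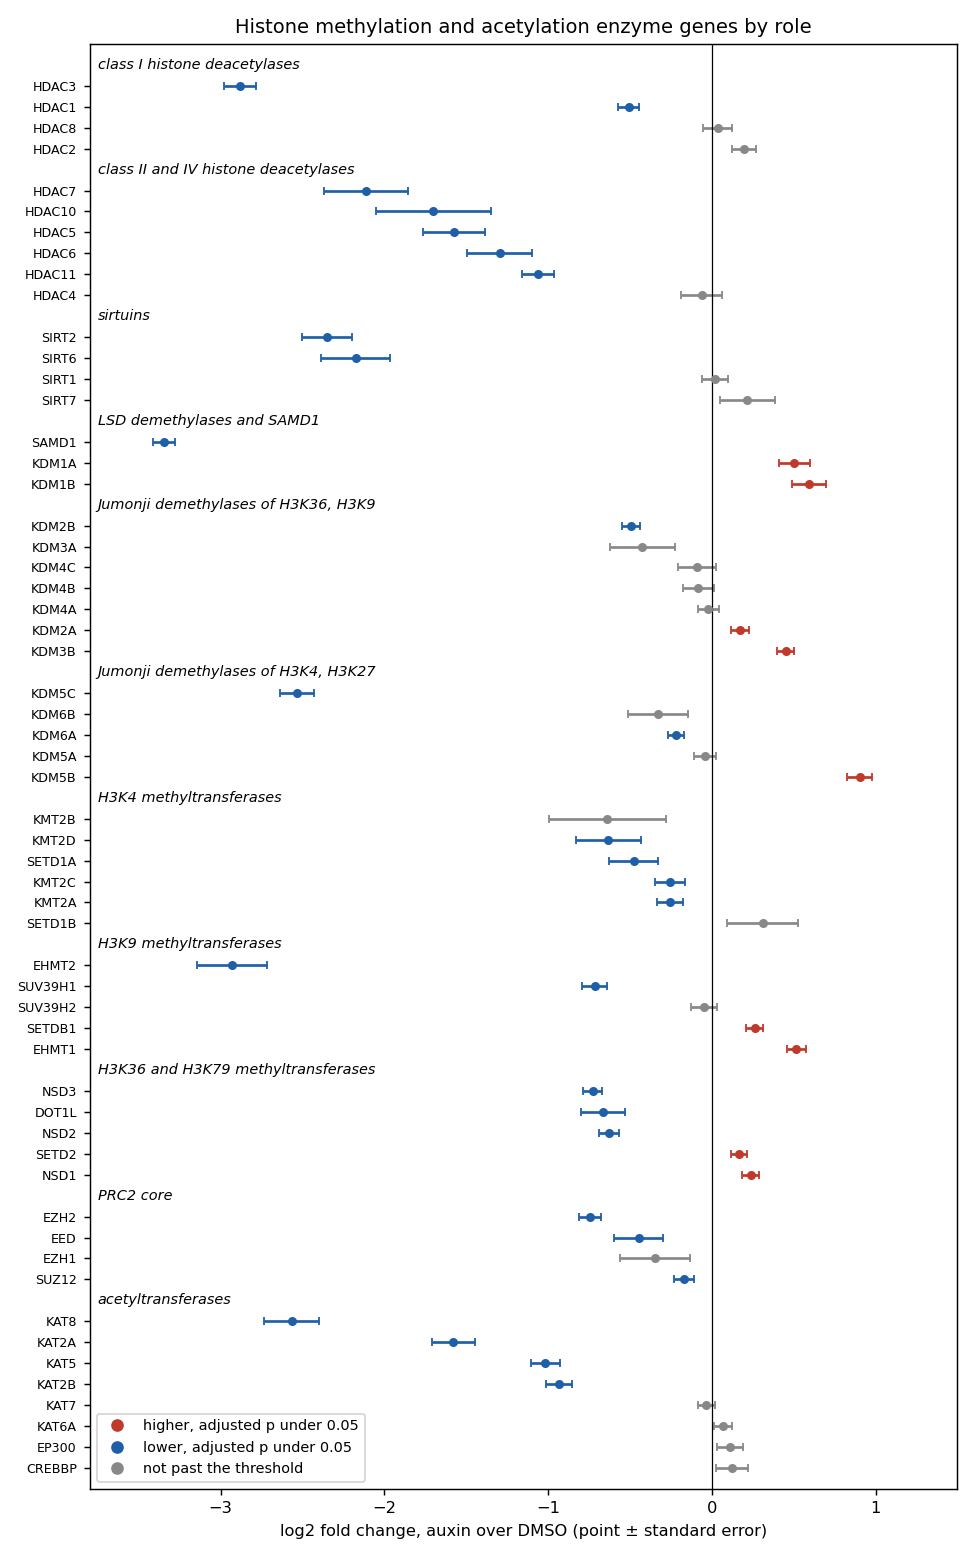
Log2 fold change, auxin over DMSO, of each of the 57 genes (horizontal axis), grouped by role, as a point with its standard error; red is higher, blue lower and grey not past an adjusted p of 0.05 in edgeR's quasi-likelihood test. The points reach from -3.34 for SAMD1 to 0.90 for KDM5B, and the 14 points at or below -1 are spread over 7 of the 11 role groups.

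Among the class I histone deacetylases, the nuclear enzymes of the large corepressor complexes, HDAC3 and HDAC1 fell and HDAC2 and HDAC8 were not called. HDAC3 (ENSG00000171720.9, chr5:141620876-141636870), the catalytic subunit of the NCoR/SMRT complex, was at 31.9, 38.7 and 36.4 CPM in the DMSO libraries and 5.16, 4.55 and 4.78 CPM in the auxin libraries, where CPM are counts scaled by TMM to a common library total. Each auxin library was far below each DMSO library, and the log2 fold change was -2.88 ± 0.10 (SE) at an adjusted p of 2.39e-06, where SE is its standard error. HDAC1, a subunit of the Sin3, NuRD and CoREST complexes, fell from 209 ± 10.9 CPM with DMSO to 147 ± 7.1 CPM with auxin (SD, n = 3 libraries each), a log2 fold change of -0.51 ± 0.07 (SE) at an adjusted p of 0.000627. Its close paralogue HDAC2 had 243 ± 14.7 CPM with DMSO and 278 ± 16.5 CPM with auxin (SD, n = 3 libraries each) and a log2 fold change of 0.19 that missed the threshold with an adjusted p of 0.0599 in edgeR, and 0.000443 with the replicate block. HDAC8 had 0.04.

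The class II and IV deacetylases were the role group with the lowest median, -1.44 in log2 fold change, and 5 of its 6 genes fell at least 2-fold. None of these 5 changed direction in any of the 17 alternative settings, but with GC-corrected offsets HDAC5, HDAC10 and HDAC11 were lower by less than 2-fold. HDAC7 (ENSG00000061273.17, chr12:47782722-47833132), a class IIa deacetylase that shuttles between nucleus and cytoplasm, was at 19.6, 14.4 and 13.7 CPM in the DMSO libraries and 5.11, 2.87 and 3.03 CPM in the auxin libraries, a log2 fold change of -2.11 ± 0.26 (SE) at an adjusted p of 0.000437. HDAC5 (ENSG00000108840.15, chr17:44076746-44123702), of the same subclass, was at 13.2, 11.3 and 8.83 CPM in the DMSO libraries and 4.51, 3.41 and 3.26 CPM in the auxin libraries, a log2 fold change of -1.57 ± 0.19 (SE) at an adjusted p of 0.000397. The lowest DMSO library lay above the highest auxin library in both genes. HDAC6 (ENSG00000094631.19, chrX:48801377-48824982), a cytoplasmic class IIb enzyme that deacetylates tubulin, was at 9.92, 8.48 and 7.07 CPM in the DMSO libraries and 4.40, 3.05 and 2.90 CPM in the auxin libraries, a log2 fold change of -1.30 ± 0.20 (SE) at an adjusted p of 0.00136. HDAC10 (ENSG00000100429.17, chr22:50245183-50251405), a polyamine deacetylase of the same subclass, was the least abundant of the 57 genes at 3.60, 2.05 and 1.87 CPM in the DMSO libraries and 1.10, 0.548 and 0.641 CPM in the auxin libraries, a log2 fold change of -1.70 ± 0.35 (SE) at an adjusted p of 0.00542. Replicate 1 stood above the other replicates in both groups, and the groups did not overlap. HDAC10 and MAPK12 share 5956 bases of the same strand, so reads there cannot be assigned to either gene with certainty. HDAC11 (ENSG00000163517.14, chr3:13479724-13506424), the sole class IV enzyme, was at 4.37, 4.74 and 4.43 CPM in the DMSO libraries and 2.23, 2.15 and 2.10 CPM in the auxin libraries, a log2 fold change of -1.06 ± 0.10 (SE) at an adjusted p of 0.000118, and its libraries were tight within each group. HDAC4 was the exception, at 18.0 ± 1.8 CPM with DMSO and 17.3 ± 2.5 CPM with auxin (SD, n = 3 libraries each) and a log2 fold change of -0.06 that was not called. With GC-corrected offsets HDAC4 was called higher at 0.41 and an adjusted p of 0.00204 in edgeR.

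Sirtuins, which remove acyl groups with NAD as cofactor, split into SIRT2 and SIRT6, which fell, and SIRT1 and SIRT7, which were not called. SIRT2 (ENSG00000068903.19, chr19:38878555-38899862), a mainly cytoplasmic tubulin and histone H4 deacetylase, was at 8.12, 6.83 and 7.04 CPM in the DMSO libraries and 1.69, 1.41 and 1.21 CPM in the auxin libraries, a log2 fold change of -2.35 ± 0.15 (SE) at an adjusted p of 2.57e-05. SIRT6 (ENSG00000077463.14, chr19:4174109-4182604), a chromatin-bound deacetylase of histone H3, was at 9.85, 7.01 and 6.88 CPM in the DMSO libraries and 2.18, 1.52 and 1.53 CPM in the auxin libraries, a log2 fold change of -2.18 ± 0.21 (SE) at an adjusted p of 0.000146. In both genes the auxin libraries all lay below the DMSO libraries. SIRT1 was at 56.9 ± 4.2 CPM with DMSO and 57.6 ± 4.3 CPM with auxin (SD, n = 3 libraries each), a log2 fold change of 0.02. SIRT7, a nucleolar H3K18 deacetylase, had a log2 fold change of 0.22 with an adjusted p of 0.319 in edgeR. It was called higher with GC-corrected offsets, at 0.90 and an adjusted p of 0.000118, and with the replicate block, at 0.20 and 0.0377. SIRT7 shares 3054 bases with MAFG on the same strand.

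SAMD1 had the largest fall of the 57 genes while both LSD demethylases rose. SAMD1 (ENSG00000141858.11, chr19:14087840-14091036) was at 32.3, 32.1 and 31.2 CPM in the DMSO libraries and 3.22, 3.09 and 3.11 CPM in the auxin libraries, a log2 fold change of -3.34 ± 0.07 (SE) at an adjusted p of 1.31e-06. Its standard error was the smallest of the 14 large falls. KDM1A, the flavin-dependent H3K4 demethylase LSD1 of the CoREST complex, rose from 204 ± 17 CPM with DMSO to 289 ± 28.2 CPM with auxin (SD, n = 3 libraries each), a log2 fold change of 0.50 ± 0.10 (SE) at an adjusted p of 0.00376. KDM1B (ENSG00000165097.14, chr6:18155329-18223853), the second LSD enzyme, which demethylates H3K4 within gene bodies, was at 104, 117 and 125 CPM in the DMSO libraries and 151, 186 and 184 CPM in the auxin libraries, a log2 fold change of 0.59 ± 0.10 (SE) at an adjusted p of 0.00254. The lowest auxin library of KDM1B stood above the highest DMSO library. Both rises lost the call with TPM in place of counts, at adjusted p of 0.111 and 0.121 for KDM1A and 0.0779 and 0.0781 for KDM1B (limma).

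**Figure D2:**
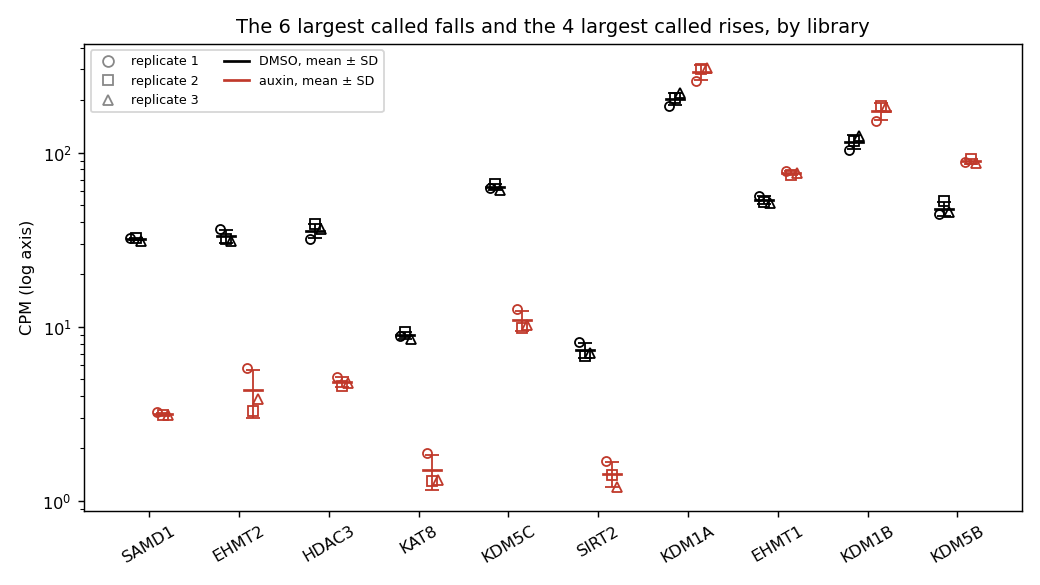
Abundance in CPM (vertical log axis) of the 6 genes with the largest called falls and the 4 with the largest called rises, by library; symbols mark the replicate, and the horizontal line and bars give the mean ± SD of 3 libraries. In each of the 10 genes the auxin and DMSO libraries occupy separate ranges, from 31.2 to 32.3 CPM against 3.09 to 3.22 CPM in SAMD1 and from 44.4 to 52.7 CPM against 86.7 to 92.0 CPM in KDM5B. The genes were picked by their large called changes in these same libraries, so separate ranges add no support of their own.

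Jumonji demethylases of H3K36 and H3K9 moved little: of 7 genes 2 were higher, 1 was lower and 4 were not called, and none changed 2-fold. KDM3B (ENSG00000120733.13, chr5:138352596-138437028), an H3K9 demethylase, was at 162, 159 and 159 CPM in the DMSO libraries and 223, 220.3 and 214 CPM in the auxin libraries, a log2 fold change of 0.45 ± 0.05 (SE) at an adjusted p of 0.000335. KDM2B (ENSG00000089094.18, chr12:121429097-121581015), an H3K36 demethylase that brings a variant of Polycomb repressive complex 1 to CpG islands, was at 35.9, 36.1 and 34.5 CPM in the DMSO libraries and 24.3, 25.9 and 25.4 CPM in the auxin libraries, a log2 fold change of -0.49 ± 0.06 (SE) at an adjusted p of 0.000338. The groups did not overlap in either gene. KDM3B lost its call with TPM in place of counts, at 0.28 and an adjusted p of 0.352 (limma). KDM2B was called in 13 of the 17 alternatives, and with GC-corrected offsets it came to -0.09 with an adjusted p of 0.441. KDM2A, the paralogue of KDM2B, was called higher at 0.17, and this call was made in 7 of the 17 alternatives. It was lost without DMSO replicate 2 or 3 and without any single auxin library, with adjusted p of 0.0551 to 0.18 in edgeR. KDM3A had -0.42 with an adjusted p of 0.114 in edgeR, its DMSO libraries ranging from 85.7 to 142 CPM and its auxin libraries from 70.6 to 100.2 CPM. In each same-numbered pair KDM3A was lower after auxin, and with the replicate block its log2 fold change was -0.41 with an adjusted p of 4.98e-05 in edgeR. KDM4A, KDM4B and KDM4C had -0.02, -0.08 and -0.09 and were not called, and KDM4B was called higher with GC-corrected offsets, at 0.61 and an adjusted p of 0.0134 in edgeR.

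The Jumonji demethylases of H3K4 and H3K27 held the largest rise and one of the largest falls, in 2 genes of the same KDM5 family. KDM5B (ENSG00000117139.17, chr1:202724495-202809470), an H3K4 demethylase, was at 44.4, 52.7 and 45.8 CPM in the DMSO libraries and 88.3, 92.0 and 86.7 CPM in the auxin libraries, a log2 fold change of 0.90 ± 0.08 (SE) at an adjusted p of 7.5e-05. KDM5C (ENSG00000126012.11, chrX:53191321-53225422), its X-linked paralogue, was at 62.4, 66.1 and 61.2 CPM in the DMSO libraries and 12.6, 9.87 and 10.2 CPM in the auxin libraries, a log2 fold change of -2.54 ± 0.10 (SE) at an adjusted p of 4.37e-06. No auxin library of either gene came within the range of the DMSO libraries. KDM5A, the third family member measured, was at 43.3 ± 2.6 CPM with DMSO and 42.1 ± 2.2 CPM with auxin (SD, n = 3 libraries each), with a log2 fold change of -0.04. Of the H3K27 demethylases, KDM6A was lower at -0.22 (adjusted p 0.00998 in edgeR) and lost the call with upper-quartile factors, where it had -0.10 and an adjusted p of 0.131. KDM6B was not called at -0.33. It was called lower with the replicate block, at -0.34 and an adjusted p of 0.00227 in edgeR, and called higher with GC-corrected offsets, at 0.39 and 0.00762.

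Of the 6 H3K4 methyltransferases of the COMPASS and MLL complexes, 4 were called lower and none 2-fold. KMT2D (ENSG00000167548.15, chr12:49018975-49059774), which monomethylates H3K4 at enhancers, was at 193, 154 and 146 CPM in the DMSO libraries and 139.8, 89.0 and 89.0 CPM in the auxin libraries, a log2 fold change of -0.63 ± 0.20 (SE) at an adjusted p of 0.0312. Replicate 1 was the highest library of its group in both groups, and auxin replicate 1 came close to the lowest DMSO library. SETD1A, KMT2C and KMT2A had -0.48, -0.26 and -0.26 in log2 fold change. These 4 calls depended on the settings: KMT2D, SETD1A and KMT2C were called lower in 8 and KMT2A in 11 of the 17 alternatives, and with GC-corrected offsets SETD1A was called in the opposite direction, at 0.30 with an adjusted p of 0.00332 in edgeR, while KMT2D was not called at -0.10 with an adjusted p of 0.499. Each of the 4 lost its call without DMSO replicate 1, without auxin replicate 2 and without auxin replicate 3, with KMT2D at -0.50, -0.52 and -0.52 and adjusted p of 0.0636, 0.0988 and 0.103. KMT2D and KMT2C lost it also without DMSO replicate 2, with adjusted p of 0.0511 and 0.108. KMT2B had the largest fold change of the group, -0.64, and was not called, with auxin libraries at 23.0, 9.67 and 9.71 CPM against 27.6, 20.4 and 18.1 CPM in DMSO. KMT2B was lower in each same-numbered pair and was called with the replicate block, at -0.73 and an adjusted p of 0.00135 in edgeR, whereas its fold change with GC-corrected offsets was 0.01. SETD1B had 0.31 with an adjusted p of 0.272 in edgeR. It was called higher with the replicate block, at 0.30 and an adjusted p of 0.000251, and with GC-corrected offsets, at 1.06 and 0.000136.

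The H3K9 methyltransferases EHMT1 (GLP) and EHMT2 (G9a), which act as a heterodimer in writing H3K9 mono- and dimethylation, moved in opposite directions. EHMT2 (ENSG00000204371.11, chr6:31879759-31897687) was at 36.2, 31.8 and 31.0 CPM in the DMSO libraries and 5.78, 3.28 and 3.85 CPM in the auxin libraries, a log2 fold change of -2.93 ± 0.21 (SE) at an adjusted p of 4.05e-05. EHMT1 (ENSG00000181090.20, chr9:137618963-137870016) was at 56.4, 52.0 and 51.5 CPM in the DMSO libraries and 78.4, 74.4 and 76.1 CPM in the auxin libraries, a log2 fold change of 0.52 ± 0.06 (SE) at an adjusted p of 0.000267, and of 0.90 with GC-corrected offsets. In CPM the groups of libraries lay apart in both genes. The coding transcripts of EHMT1 had a mean of 14.3 TPM with DMSO and 18.4 TPM with auxin, and the groups overlapped. Its transcripts annotated as processed transcript, which are not among the coding ones, went from a mean of 1.30 to 8.43 TPM. SUV39H1, which trimethylates H3K9 in pericentric heterochromatin, fell by 0.71 on the log2 scale (adjusted p 0.000228 in edgeR), and its fold change was -0.16 with an adjusted p of 0.179 with GC-corrected offsets. Its paralogue SUV39H2 had -0.05. SETDB1, the KRAB zinc finger-recruited methyltransferase, was higher at 0.26 (adjusted p 0.00431 in edgeR), a call made in 14 of the 17 alternatives and lost with library size only or TPM. SETDB1 shares 4162 bases with CERS2 on the opposite strand, whose mean TPM was 91.0 against 18.3 for SETDB1, and the sources used here do not state whether counting used the strand, so reads of the 2 genes cannot be told apart there. KDM2B, SUV39H2, NSD3 and DOT1L likewise share 1527, 6957, 5862 and 2495 bases with RNF34, DCLRE1C, DDHD2 and PLEKHJ1 on the opposite strand. EHMT1 shares 92056 bases on its own strand with AL590627.2, whose mean TPM was 6.9 against 36 for EHMT1.

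All 5 methyltransferases of H3K36 and H3K79 were called, 3 lower and 2 higher, and none changed 2-fold. NSD3 (ENSG00000147548.16), which writes H3K36 dimethylation, was at 148, 151 and 156 CPM in the DMSO libraries and 86.8, 93.0 and 94.7 CPM in the auxin libraries, a log2 fold change of -0.73 ± 0.06 (SE) at an adjusted p of 6.09e-05. NSD1 (ENSG00000165671.20, chr5:177133025-177300215), a paralogue of it, was at 144, 145 and 146 CPM in the DMSO libraries and 170.3, 175 and 167 CPM in the auxin libraries, a log2 fold change of 0.24 ± 0.05 (SE) at an adjusted p of 0.00669. The libraries of the 2 groups did not overlap in either gene, although the change of NSD1 was small and was called in 13 of the 17 alternatives, not among them GC-corrected offsets, with 0.13 and an adjusted p of 0.0863 in edgeR. NSD2 fell by 0.63 on the log2 scale (adjusted p 0.000163 in edgeR) and was called lower in all 17 alternatives. DOT1L, the sole H3K79 methyltransferase, fell by 0.66 (adjusted p 0.0051 in edgeR), and with GC-corrected offsets its fold change of -0.07 was not called. SETD2, which trimethylates H3K36 behind elongating polymerase, was higher at 0.17, a call made in 6 of the 17 alternatives and lost without any 1 library other than auxin replicate 1, with adjusted p of 0.0679 to 0.142 in edgeR.

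PRC2, the H3K27 methyltransferase complex, had 3 of 4 core genes called lower. EZH2 (ENSG00000106462.10, chr7:148807383-148884321), its catalytic subunit, was at 88.0, 80.8 and 90.2 CPM in the DMSO libraries and 50.3, 49.2 and 54.9 CPM in the auxin libraries, a log2 fold change of -0.75 ± 0.07 (SE) at an adjusted p of 0.000108. All auxin libraries of EZH2 were below all DMSO libraries, and the call was made in all 17 alternatives. EED, the subunit that reads trimethylated H3K27, fell by 0.45 (adjusted p 0.0396 in edgeR) and was called in 12 of the 17. The call of EED was lost without DMSO replicate 2 or 3 and without auxin replicate 1 or 2, with adjusted p of 0.076 to 0.107. SUZ12, the scaffold subunit, fell by 0.17 (adjusted p 0.0472 in edgeR), was called in 6 of the 17 and lost the call without any single library, with adjusted p of 0.0648 to 0.138. EZH1, the alternative catalytic subunit, had -0.35 with an adjusted p of 0.212 in edgeR and was called lower with the replicate block, at -0.37 and 0.00849.

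Among the acetyltransferases, 4 of 8 fell and none rose. KAT8 (ENSG00000103510.19, chr16:31115754-31131393), the H4K16 acetyltransferase MOF, was at 8.84, 9.36 and 8.52 CPM in the DMSO libraries and 1.88, 1.29 and 1.31 CPM in the auxin libraries, a log2 fold change of -2.57 ± 0.17 (SE) at an adjusted p of 2.68e-05. KAT5 (ENSG00000172977.12, chr11:65711996-65719604), the TIP60 enzyme, was at 23.1, 26.6 and 27.6 CPM in the DMSO libraries and 12.8, 12.2 and 13.2 CPM in the auxin libraries, a log2 fold change of -1.02 ± 0.09 (SE) at an adjusted p of 8.05e-05. KAT2A (ENSG00000108773.10, chr17:42113108-42121358), the GCN5 subunit of SAGA, was at 25.5, 20.7 and 22.3 CPM in the DMSO libraries and 8.96, 6.86 and 7.11 CPM in the auxin libraries, a log2 fold change of -1.58 ± 0.13 (SE) at an adjusted p of 7.48e-05. Each of these 3 genes had separate ranges of libraries in the groups. KAT2B (PCAF), the paralogue of KAT2A, fell by 0.93 on the log2 scale (adjusted p 9.17e-05 in edgeR). The coactivators EP300 and CREBBP had 0.11 and 0.13, and KAT6A and KAT7 had 0.07 and -0.03, none of them called. EP300 and CREBBP were called higher with the replicate block, at 0.11 and 0.13 and adjusted p of 0.00975 and 0.0109 in edgeR. With GC-corrected offsets CREBBP was called higher at 0.37 and KAT7 lower at -0.15, with adjusted p of 0.0016 and 0.0452.

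Partner genes of the same complexes and families were read from the same fit. Of 81 such genes, 32 were lower, 19 higher and 30 not called, with a median log2 fold change of -0.11. These are 39.5% lower and 23.5% higher, near the 33.4% and 27.8% of protein-coding genes, and against 26.9% and 25.4% of all genes tested. The counts in the lists below are small and are to be read beside these shares. Corepressor subunits of the deacetylase complexes had the lowest median of the partner lists, -0.78, with 9 of 15 lower and 3 higher. GPS2, a subunit of the NCoR/SMRT complex, changed most among them, at 34.1, 33.2 and 33.6 CPM in the DMSO libraries and 3.13, 2.85 and 3.40 CPM in the auxin libraries, a log2 fold change of -3.42 ± 0.09 (SE) at an adjusted p of 1.58e-06. The COMPASS and MLL partners had 5 of 11 lower and 2 higher, led by HCFC1, a scaffold that also serves transcription factors, at 234, 183 and 186 CPM in the DMSO libraries and 28.0, 19.9 and 21.8 CPM in the auxin libraries, a log2 fold change of -3.11 ± 0.16 (SE) at an adjusted p of 1.05e-05. PRC2 accessory genes had 4 of 7 lower and 0 higher, led by PHF1, a reader of H3K36 trimethylation, at 19.3, 16.9 and 15.6 CPM in the DMSO libraries and 2.73, 2.04 and 2.22 CPM in the auxin libraries, a log2 fold change of -2.89 ± 0.14 (SE) at an adjusted p of 8.91e-06. In GPS2, HCFC1 and PHF1 alike, no auxin library reached the DMSO range. Subunits of acetyltransferase complexes were mixed, with 6 of 23 lower, 8 higher and a median of 0.01. The largest change among these was in BRPF3, a scaffold of the KAT7 complex, from 60.2 ± 2.5 CPM with DMSO to 26.7 ± 1.2 CPM with auxin (SD, n = 3 libraries each), a log2 fold change of -1.17 ± 0.06 (SE) at an adjusted p of 1.05e-05. Other enzymes of the same families, which were not on the list of 57, had 8 of 25 lower and 6 higher. The H4K20 methyltransferase KMT5C changed most of these, from 3.11 ± 0.94 CPM with DMSO to 0.658 ± 0.36 CPM with auxin (SD, n = 3 libraries each), a log2 fold change of -2.22 ± 0.42 (SE) at an adjusted p of 0.00352.

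Paralogues were then compared within each library, as the log2 ratio of their TPM, which is an abundance per transcript length. Of 17 pairs, 11 reached 0.1, the smallest p that a two-sided exact permutation test of 3 against 3 libraries can give, and after Benjamini-Hochberg adjustment over the 17 pairs these stood at 0.155, so that no pair could pass 0.05. The EHMT1 to EHMT2 ratio moved most. Its log2 was 0.66, 0.89 and 0.90 in the DMSO libraries and 3.64, 5.06 and 4.71 in the auxin libraries, a mean difference of 3.65. The log2 ratio of HDAC4 to HDAC5 went from a mean of 0.21 ± 0.15 to 1.56 ± 0.30 (SD, n = 3 each), a difference of 1.35. Other ratios at a p of 0.1 in the permutation test moved toward the second gene of the pair. They did so by -0.88 for KDM3A over KDM3B, -0.86 for KDM5A over KDM5B, -0.72 for HDAC1 over HDAC2 and -0.50 for SUV39H1 over SUV39H2. Toward the first gene moved NSD1 over NSD2 by 0.68, KDM2A over KDM2B by 0.54 and EZH1 over EZH2 by 0.49, at the same p. In the HDAC1 and HDAC2 pair the mean log2 ratio went from -0.85 ± 0.04 to -1.57 ± 0.04 (SD, n = 3 each), the smallest spread of these. At the other end, KDM4A over KDM4B differed by 0.01 between the groups, KDM6A over KDM6B by -0.07 and KDM1A over KDM1B by -0.11, and their libraries overlapped. The ratio of KAT2A to KAT2B depended on the unit, with a difference of 0.72 on TPM and -0.65 on CPM, and that of EP300 to CREBBP with 0.12 and -0.02.

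**Figure D3:**
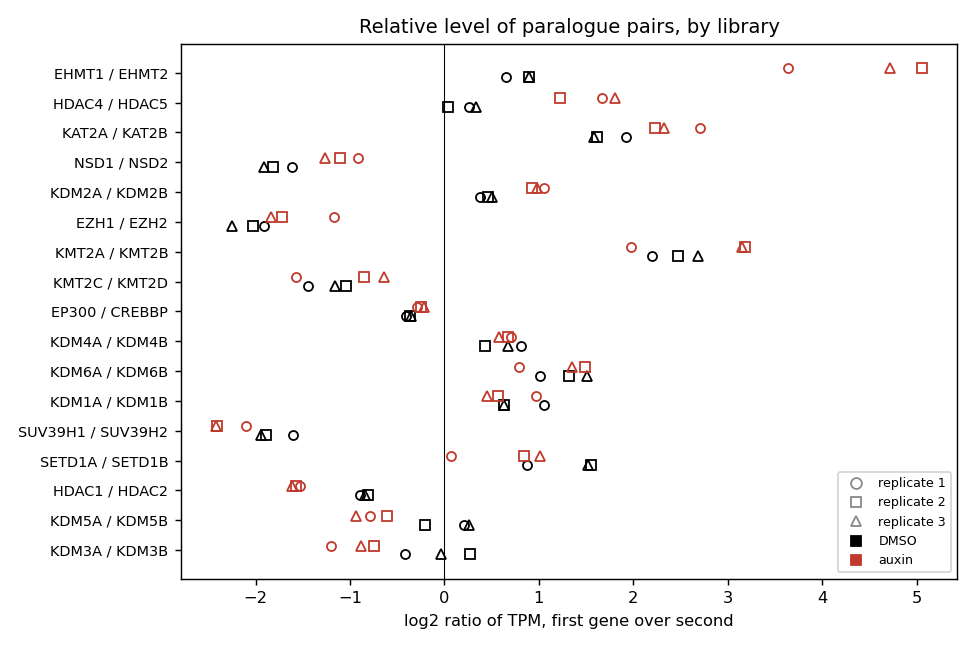
Log2 ratio of TPM, first gene over second (horizontal axis), of 17 paralogue pairs by library; black symbols are DMSO, red symbols auxin, and the symbol shape gives the replicate. The red symbols of EHMT1 over EHMT2 lie between 3.64 and 5.06 and the black ones between 0.66 and 0.90, while the symbols of KDM4A over KDM4B are intermixed.

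The deposited transcript tables give the share of each gene's TPM on each annotated transcript. These shares are given with no test, because the test planned for them called too many unchanged genes on simulated data. A transcript annotated as retained intron holds sequence that is intronic in other transcripts of the gene, though not always a whole intron. It is usually not translated into the full protein. In 49 of the 57 genes with both retained-intron and other transcripts, the share of TPM on retained-intron transcripts was higher in every auxin library than in every DMSO library in 19, or 38.8%, and lower in 3, or 6.12%. Over the 7714 genes with both kinds, the shares were 20.8% and 6.69%. A mean rise of at least 10 percentage points was seen in 12 enzyme genes, or 24.5%, against 13.3% of the 7714. Of 27 members called lower in counts that have both kinds, 14 had the higher share after auxin in every library and 0 the lower one. Of 8 members called higher, 1 had the higher share and 2 the lower one. The same counts were not made over all genes called lower or higher. It is therefore not known whether these genes differ in this from other genes with the same call.

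KAT2A had the largest rise, from 11.6%, 10.1% and 6.78% in the DMSO libraries to 75.7%, 76.6% and 75.6% in the auxin libraries. Nearly all of this share lay in KAT2A-205, a 2-exon transcript of 596 bases that keeps the 226-base intron whose ends are printed above, and which went from a mean of 8.66% ± 2.37 to 75.8% ± 0.69 (SD, n = 3 each) of the gene's TPM, a shift of 67.2 percentage points. As a share of the gene's counts, a measure chosen after seeing the data, the shift was 28.6 points. In TPM itself the transcript went from 0.80 to 5.22. The gene's TPM moved less than its counts, from 8.83 to 6.89 against 22.8 to 7.65 CPM, and limma on log2(TPM + 1) gave a fold change of -0.30 with an adjusted p of 0.493. KAT8 went from 30.2%, 25.8% and 25.99% in the DMSO libraries to 78.6%, 74.2% and 65.7% in the auxin libraries, and KAT5 from 41.9%, 13.8% and 12.2% in the DMSO libraries to 57.5%, 50.1% and 52.1% in the auxin libraries. In KAT5 the DMSO replicate 1 stood at 41.9%, well above the other DMSO libraries and below each auxin library, and the transcript KAT5-206 alone rose from a mean of 20.3% to 47.5%. KAT5 also shares 5600 bases with RNASEH2C on the opposite strand. KAT8 shares 1830 and 670 bases on its own strand with AC135050.6 and AC135050.5, which are annotated as sense intronic. Their mean TPM was 1.87 and 0.575 against 4.25 for KAT8, so reads there cannot be assigned with certainty.

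In HDAC3 the retained-intron share went from 15.2%, 12.2% and 10.01% in the DMSO libraries to 48.2%, 41.5% and 37.8% in the auxin libraries. The main coding transcript HDAC3-201 fell from 74.2%, 78.9% and 80.8% of the gene's TPM to 19.9%, 33.4% and 36.1%, and from a mean of 18.3 to 1.39 in TPM. The gene's counts and the share of its coding transcript thus were both lower after auxin. SIRT7, whose counts were not called, had a retained-intron share that went from 43.7%, 34.7% and 30.02% in the DMSO libraries to 67.5%, 59.9% and 58.2% in the auxin libraries, and its coding transcript SIRT7-201 went from a mean of 63.3% to 38.1%. In KDM4B, which was not called in counts, the shift was among coding transcripts. KDM4B-211 went from 57.4%, 65.4% and 60.7% in the DMSO libraries to 19.9%, 23.4% and 17.9% of TPM in the auxin libraries, and KDM4B-201 from a mean of 14.6% to 47.05%. The coding transcripts of KDM4B together held 94.5% and 93.7% of its TPM, and retained-intron transcripts 0.18% and 0.15%. For EHMT2 the retained-intron share went from 5.60%, 3.46% and 3.69% in the DMSO libraries to 35.6%, 34.6% and 23.5% in the auxin libraries, and for SUV39H1 from 2.59%, 1.94% and 0.79% in the DMSO libraries to 18.00%, 13.7% and 14.00% in the auxin libraries. HDAC10, HDAC7, SIRT6, SETDB1 and KDM5C completed the 12 genes, with mean rises of 28.6, 25.9, 18.9, 14.6 and 14.4 percentage points. A higher share was not always a higher TPM on retained-intron transcripts. Their mean TPM went from 2.99 with DMSO to 2.17 with auxin in HDAC3 and from 0.77 to 0.45 in SIRT6. It was also lower after auxin in KAT8, HDAC10, HDAC7 and EHMT2. It was higher in KAT2A, from 0.87 to 5.23, in SUV39H1, from 0.17 to 0.79, and in KAT5, SIRT7, SETDB1 and KDM5C. The groups of libraries overlapped in this TPM in several of these genes, HDAC3 among them.

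**Figure D4:**
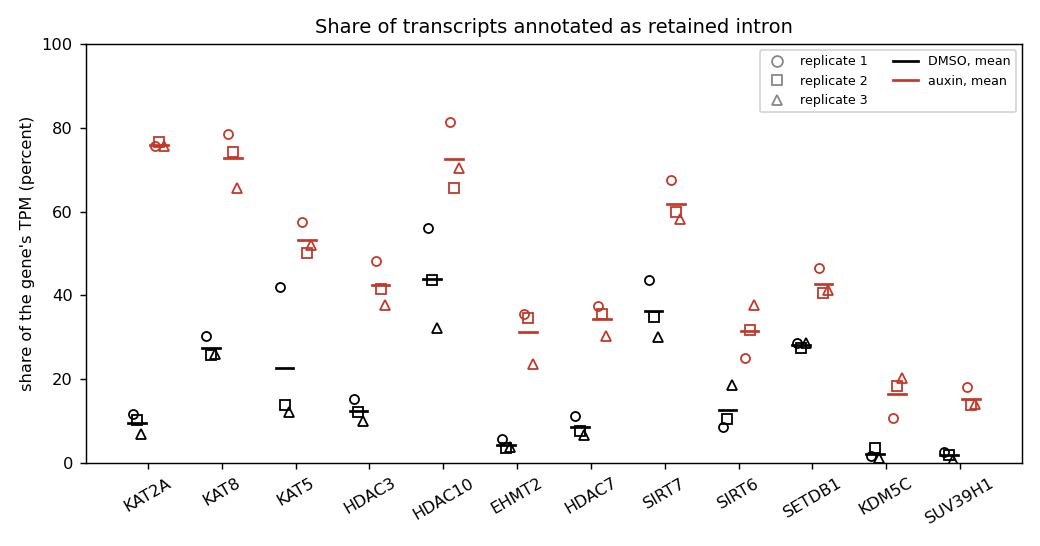
Share of a gene's TPM on transcripts annotated as retained intron (vertical axis, percent), by library, for the 12 genes with a mean rise of at least 10 percentage points; lines mark the mean of 3 libraries and symbols the replicate. In each gene the lowest auxin library lies above the highest DMSO library, with the widest gap in KAT2A and the DMSO replicate 1 of KAT5 at 41.9%.

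Retained-intron transcripts with a mean share of at least 10% after auxin numbered 17, in 11 enzyme genes. An intron of a coding transcript was counted as kept if it lay whole within an exon of such a transcript. The 20 introns found kept in them came only from KAT2A, KAT8, EHMT2, SUV39H1, SIRT7, HDAC7 and HDAC10. None was found in KAT5-206 or SETDB1-216, which held means of 47.5% and 35.5% of their gene's TPM after auxin. HDAC7 and HDAC10 gave most of the 20. The 20 were 73 to 1364 bases long, with a median of 193, and 50.1% to 68.9% GC, with a median of 62.4%. Some introns of HDAC7 and of HDAC10 overlap, as alternatives over the same stretch, and each was counted. All 20 began with GT and 19 ended with AG. The exception was the acceptor of 1 HDAC7 intron, which ends with GG.

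All 14 genes that fell at least 2-fold had at least 50% GC in their transcripts, and 11 of the 14 were shorter than 30 kb. The GC content of a gene is here the mean over its transcripts, weighted by their TPM in the libraries of both groups. This value and the mean log2 CPM below draw on the auxin libraries and so are not independent of the response. Of the 30 enzyme genes with 50% GC or more, 19 were lower and 14 of these at least 2-fold, whereas of the 27 with less, 10 were lower and 0 at least 2-fold. Over protein-coding genes the corresponding shares lower at least 2-fold were 29.9% at 50% GC or more and 3.05% below. Of the 18 enzyme genes under 30 kb, 13 were lower and 0 higher, and of the 39 longer ones 16 were lower and 9 higher. These are 72.2% and 41% lower, against 40.8% and 26.8% of the protein-coding genes under and over that length. Of the 18 shorter enzyme genes, 17 also had at least 50% GC, so short length and high GC content cannot be told apart there. Among enzyme genes with 50% GC or more, 76.5% of the 17 shorter and 46.2% of the 13 longer ones were lower. In protein-coding genes of that GC content these shares were 53.2% and 37.8%. Higher calls were made in 1509 of the 6695 shorter and 2426 of the 7459 longer protein-coding genes. All 9 genes called higher were thus 30 kb or longer. Across the 57 genes the log2 fold change had a Pearson correlation of -0.49 with GC content, 0.60 with the logarithm of gene length and 0.60 with mean log2 CPM, where the genes share libraries and the features are related to each other. Over 14145 protein-coding genes the same coefficients were -0.41, 0.22 and 0.04. SAMD1, which fell most, had 64.2% GC and 3.20 kb, and EHMT2, the next, had 58.6% GC and 17.9 kb. With offsets corrected for GC content, 25 of the 57 genes were lower and 14 higher, with a median log2 fold change of -0.15, and SAMD1, EHMT2 and HDAC3 stood at -2.46, -2.41 and -2.84, while 4 of the 14 large falls, in HDAC5, HDAC10, HDAC11 and KAT5, were then smaller than 2-fold.

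**Figure D5:**
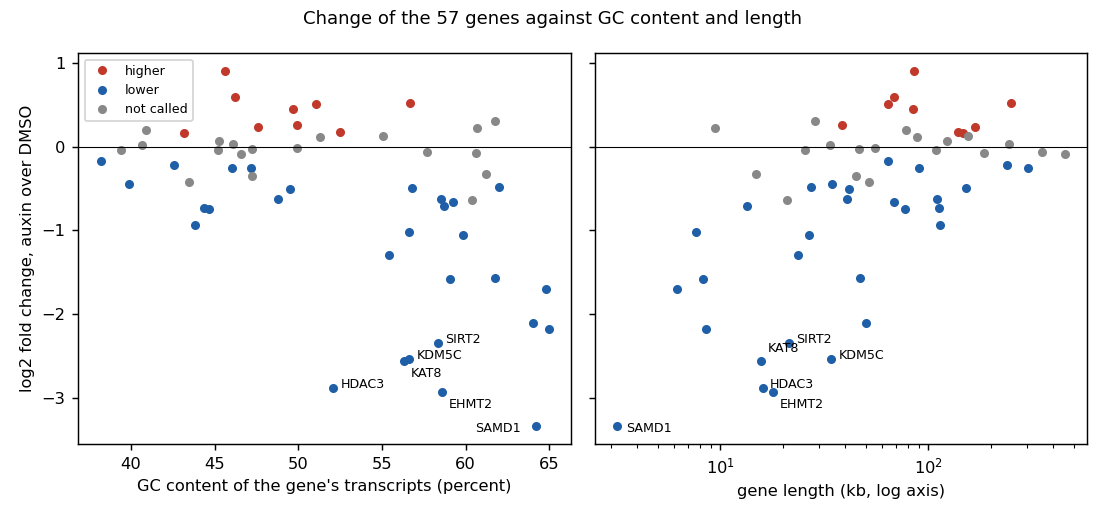
Log2 fold change, auxin over DMSO (vertical axis), of the 57 genes against the GC content of their transcripts in percent (left) and gene length in kb on a log axis (right); red is higher, blue lower and grey not called. All 14 genes at or below -1 lie at 50% GC or more, and all 9 red points lie at 30 kb or more.

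Promoter sequences, 250 bases before to 50 after a gene's start, were found in RefSeq (GRCh38.p14) for 50 of the 57 genes, as 71 entries. No entry was matched for KAT6A, SIRT7, KAT8, NSD3, DOT1L, HDAC5 and SETD1B. The promoters of SAMD1, with the largest fall, and KDM5B, with the largest rise, are shown as the ends of the range of response, with each GGGCGG (the GC box) on either strand in capitals.
SAMD1 promoter: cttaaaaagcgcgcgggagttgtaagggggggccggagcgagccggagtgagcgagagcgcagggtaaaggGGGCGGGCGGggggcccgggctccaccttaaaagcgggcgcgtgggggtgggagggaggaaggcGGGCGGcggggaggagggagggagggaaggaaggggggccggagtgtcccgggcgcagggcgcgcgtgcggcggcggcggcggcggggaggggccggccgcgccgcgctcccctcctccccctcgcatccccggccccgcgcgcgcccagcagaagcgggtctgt
KDM5B promoter: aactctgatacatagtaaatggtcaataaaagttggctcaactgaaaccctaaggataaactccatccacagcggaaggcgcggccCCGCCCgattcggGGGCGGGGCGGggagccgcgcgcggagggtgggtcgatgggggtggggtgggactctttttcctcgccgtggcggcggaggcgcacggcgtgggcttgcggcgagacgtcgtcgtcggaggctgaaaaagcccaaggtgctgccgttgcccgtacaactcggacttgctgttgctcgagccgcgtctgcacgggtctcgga
The SAMD1 window is chr19:14090702-14091001 and the KDM5B window chr1:202808372-202808671, both on the minus strand, with 78.0% and 63.7% GC and 41 and 34 CpG. Each holds 3 GC boxes, overlapping ones counted separately, and neither holds CCGGAAGT, CCAAT or TATAAA on either strand. GGGCGG was found on either strand in 70.4% of the 71 entries and in 45.0% of 35116 promoters in the table. By call, it was in 78.8% of the 33 entries of genes called lower, 80.0% of the 15 of genes called higher and 52.2% of the 23 of genes not called. TATAAA was in 0 of the 71 entries and in 11.5% of all promoters, CCAAT in 31.0% and 34.6%, and CCGGAAGT in 4.23% and 4.14%. The median GC content was 68.7% in the 71 entries and 58.7% over all promoters. Genes that rose and genes that fell thus differed little in how many of their entries held the GC box.

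By abundance per transcript length, HDAC2 was the highest of the 57 genes in both groups, at 197 ± 38.7 TPM in DMSO and 206 ± 19.6 TPM after auxin (SD, n = 3 each). HDAC1 was next in DMSO, at 109 ± 18.3 TPM, and stood at 69.3 ± 7.47 TPM after auxin, below KDM1A at 90.5 ± 4.48 TPM. SAMD1 and EHMT2, each at a mean of 16.3 TPM in DMSO, stood at 1.42 and 2.13 TPM after auxin.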

How the data were processed

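Libraries were made from ribosomal RNA-depleted total RNA with a stranded kit and read in 151 paired-end cycles, per the labels' protocols. The submitters' processing notes name bcl2fastq 2.20, STAR, DESeq2 and GRCh38/hg38; the annotation and strand setting are not given in the sources used here. All 58780 gene and 206761 transcript IDs of the deposited tables are in GENCODE 29. The authors deposited, per gene and transcript, an expected count (an estimated count, not normalized), TPM and a posterior SD of the count, and per transcript the percent of its gene's abundance, per the file headers.

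Expected counts were rounded, filtered with filterByExpr, scaled by TMM and tested with edgeR 4.0.16 (R 4.3.3; glmQLFit, glmQLFTest) over 19725 genes, with Benjamini-Hochberg adjustment and a threshold of 0.05. Entries that name no gene took 0.000688% of all counts and were left out. The error given is the SD between libraries or the SE of the fit, as named. Counting error was not compared with the spread between replicates gene by gene. Despite totals of 234037969 to 625895062 counts it need not be small in genes with few counts, such as SAMD1 with 689 in its lowest library. Deviations of same-numbered libraries from their group means correlated at 0.651, 0.265 and 0.276 across genes for replicates 1, 2 and 3. DMSO replicate 3 with auxin replicate 2 gave 0.312, and DMSO replicate 2 with auxin replicate 3 gave 0.18. Replicate 1 of either group with the others of the other group gave -0.475 to -0.356. The correlations thus set replicate 1 apart but do not show how replicates 2 and 3 pair. The replicate block used the numbers as labelled. Transcript shares were described without a test, since more than 10% of the calls of the planned limma 3.58.1 test were unchanged genes on simulated data. Alternatives were DESeq2 1.42.0, other scalings and filters, TPM with limma-trend, GC-corrected offsets, the replicate block and leaving out libraries.

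In each role group, the called genes with the largest rise and fall and any called at 2-fold or more are given by library. The largest called change of each partner list and the 5 largest transcript shifts, in genes with at least 500 counts in every library, are named. The members and lists were chosen with earlier results of these data known.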

Additional observations from a re-analysis of the deposited data

How the results depend on the processing

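Of the 57 genes, 29 were called lower and 9 higher. Leaving out single libraries gave 23 to 30 lower and 7 to 9 higher, and leaving out replicate 1 of both groups gave 33 and 13. Higher calls were 5 with library size only, 14 with the replicate block, 14 with GC-corrected offsets and 18 with GC correction and the replicate block together. Limma-trend gave 2 higher and 17 lower with log2(TPM + 1) and again 2 and 17 with log2(TPM + 0.1). Over all genes, single libraries left out gave 3876 to 4979 higher and 4493 to 5575 lower, leaving out replicate 1 of both groups gave 5914 and 6219, log2(TPM + 1) gave 970 and 2966, log2(TPM + 0.1) 1017 and 3223, and GC correction with the replicate block 7922 higher. The 81 partner genes had 13 to 18 higher and 32 to 33 lower with single libraries left out, 22 and 38 without replicate 1 of both groups, 1 and 21 with log2(TPM + 1), 0 higher with log2(TPM + 0.1) and 29 higher with GC correction and the replicate block. Upper-quartile factors moved the median gene by 0.12 on the log2 scale, and TPM by -0.14 and -0.15. The cause of these differences was not tested.

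Fold changes turned positive with GC correction, without and with the replicate block, in HDAC4 (0.41 and 0.41), KDM4B (0.61 and 0.62), KDM6B (0.39 and 0.39) and SETD1A (0.30 and 0.29). With CPM the KAT2A over KAT2B ratio differed by -0.65 and EP300 over CREBBP by -0.02. As shares of counts, chosen after seeing the data, the shifts were 28.6 points for KAT2A-205, -33.8 for HDAC3-201 and -46.9 for KDM4B-211. Leaving out single libraries gave 65.9 to 68.2, -51.3 to -43.2 and -42.7 to -38.7 for these, 22.2 to 36.5 for KAT5-206 and -29.1 to -22.1 for SIRT7-201. The replicate block changed no member's direction. The planned tests of transcript use with diffSpliceDGE and with divided counts were not run on the data. HDAC10 and KMT5C had the fewest counts of the genes tested and named. A sign-flip test of the same-numbered pair differences, as the replicate block for the paralogue ratios, cannot give a p below 0.25.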
